A study of Mus musculus with 6 samples.

Results

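The endothelin system was followed through 7 genes of the mouse: the ligand genes Edn1, Edn2 and Edn3, the receptor genes Ednra and Ednrb, and the genes of the converting enzymes, Ece1 and Ece2. They were chosen by name. On the array, 6 of the 7 had a probe set annotated with that gene alone, among 19938 genes measured in this way, and Ednra was not analysed here. Expression was measured in enterospheres, free-floating spheres grown from cells of the gut muscle of newborn C57BL/6 mice no older than 12 hours. The spheres were grown for 4 days and another 5 days with epidermal and fibroblast growth factor and then moved to differentiation medium without these factors. After 1 day in that medium, triiodothyronine (T3, the active thyroid hormone) was added at 100 nM (written nm in the labels) to 3 samples, and 3 control samples received none. RNA was taken 1 day later. Each sample pooled cells from 3 mice and was hybridised to 1 array. T3 went into a part of the dishes, and the labels do not say whether a T3 and a control sample share mice, so a p-value here reflects only how far these samples spread.

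Endothelins are short peptides. They are cut from longer precursors, first by furin-type proteases to an inactive form called big endothelin and then by the converting enzymes, and they act on G protein-coupled receptors. The A receptor prefers endothelin 1 and 2, whereas the B receptor binds all of the peptides alike. In the embryonic gut, endothelin 3 from the mesenchyme acts on the B receptor of migrating neural crest cells and holds them in an undifferentiated, dividing state. Loss of endothelin 3, of the B receptor or of the first converting enzyme leaves the distal gut without neurons, as in Hirschsprung disease.

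The labels call the cells neural progenitors of the enteric nervous system, and the arrays carried signal of more than these cells. Markers of enteric neural progenitors and glia had a mean control log2 value of 10.66 over 7 measured genes, neuron markers 10.40 over 7, and fibroblast and mesenchyme markers 10.47 over 8. The means were 9.72 for interstitial cells of Cajal, 7.86 for smooth muscle, 6.19 for endothelium, 5.69 for mesothelium, 5.09 for epithelium and 5.04 for macrophages. Probe sets differ in brightness, so these means give no order of cell types. The values come without detection calls, so a low value may be background. In such bulk samples, fewer cells of a type and less RNA per cell cannot be told apart. The array medians ran from 6.09 to 6.15 on the log2 scale, and the number of arrays limits the precision. Known responses to the hormone were present: Hr, a nuclear receptor corepressor, had a log2 change of 1.92 ± 0.07 (SE), and Klf9, a transcription factor, one of 1.86 ± 0.08 (SE).

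Of the 6 measured genes, Edn3 rose with T3, none fell and 5 did not pass the test (limma over all genes, Benjamini-Hochberg adjusted p under 0.05). Over all genes, 3.10% passed, 2.28% higher and 0.823% lower. The median log2 change was 0.03 over the 6 genes and 0.01 over all genes. T3 and control values did not overlap for Edn3 and Ece2, both higher with T3, where 19.5% of all genes did not overlap, 11.9% on the higher and 7.55% on the lower side.

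The sequences before the start sites of the ligand genes are given first, because Edn3 is the endothelin gene that was called and Edn1 and Edn2 are its closest relatives. Thyroid hormone receptors bind DNA at copies of the half-site AGGTCA, best known as a pair spaced by 4 bases, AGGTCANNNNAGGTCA, and some sites use GGGTCA. The 250 bases before each RefSeq start (GRCm38.p6) were searched on both strands for the 3 motifs, the pair holding the first motif in both of its arms. All 6 measured genes had an entry, with 9 windows in all because Ece1 has 4 starts. The windows of the 3 ligand genes are, from chr2:174760369-174760618 (plus strand) for Edn3, chr13:42301226-42301475 (plus strand) for Edn1 and chr4:120160956-120161205 (plus strand) for Edn2:
Edn3: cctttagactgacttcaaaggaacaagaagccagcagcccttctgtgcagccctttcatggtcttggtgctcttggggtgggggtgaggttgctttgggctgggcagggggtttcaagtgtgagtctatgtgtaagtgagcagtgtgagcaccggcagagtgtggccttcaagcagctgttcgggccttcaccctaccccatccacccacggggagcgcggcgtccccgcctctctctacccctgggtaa
Edn1: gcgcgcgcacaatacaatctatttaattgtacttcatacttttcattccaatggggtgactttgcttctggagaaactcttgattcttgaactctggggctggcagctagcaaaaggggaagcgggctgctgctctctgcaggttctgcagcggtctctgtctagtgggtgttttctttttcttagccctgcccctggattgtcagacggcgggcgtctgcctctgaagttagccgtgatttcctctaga
Edn2: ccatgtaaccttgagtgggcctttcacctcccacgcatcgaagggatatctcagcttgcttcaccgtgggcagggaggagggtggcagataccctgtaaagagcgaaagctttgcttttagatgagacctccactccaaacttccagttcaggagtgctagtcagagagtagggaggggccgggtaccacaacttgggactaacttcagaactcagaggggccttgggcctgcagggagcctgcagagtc

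None of these 3 windows holds any of the 3 motifs, so no base is in capitals. AGGTCA is in 14% of the 32851 windows of all genes, GGGTCA in 11.6% and the spaced pair in 0.0152%. The G and C content was 59.2% for Edn3, 50.4% for Edn1 and 55.6% for Edn2, against a median of 52.4% over all windows. Among the other genes, 1 of the 4 Ece1 windows holds GGGTCA, on the strand opposite to the gene. It is shown because it is the only match of the 9 windows, with the match in capitals, from chr4:137913308-137913557 (plus strand):
Ece1: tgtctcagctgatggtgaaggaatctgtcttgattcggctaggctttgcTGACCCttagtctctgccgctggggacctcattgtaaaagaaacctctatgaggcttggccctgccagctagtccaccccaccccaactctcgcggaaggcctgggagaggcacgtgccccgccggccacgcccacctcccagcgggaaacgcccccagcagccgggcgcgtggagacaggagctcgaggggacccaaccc

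A match is a stretch of letters and not a known binding site, and a window without one says only that these letters are not in it.

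Edn3, the ligand that the gut mesenchyme makes for the B receptor (probe set 10479165), was more than 3-fold higher with T3. Its log2 values were 7.76, 7.82 and 7.71 in control replicates 1, 2 and 3, and 9.13, 9.66 and 9.55 in T3 replicates 1, 2 and 3. Every T3 array lay above every control array, and the gap between the lowest T3 and the highest control value was 1.32, larger than the spread within either group. T3 replicate 1 was the lowest of its group, so that the T3 samples spread over 0.53 and the controls over 0.11. The means were 7.76 ± 0.05 (SD, n = 3) in controls and 9.45 ± 0.28 (SD, n = 3) with T3. The log2 change was 1.69 ± 0.13 (SE), with a 95% confidence interval of 1.39 to 1.98, a 3.22-fold difference in signal with bounds of 2.62 and 3.94 (limma, adjusted p = 0.000617). It was the 10th largest rise of the 19938 genes. Edn3 passed without any 1 array, with changes from 1.58 to 1.84.

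**Figure D1:**
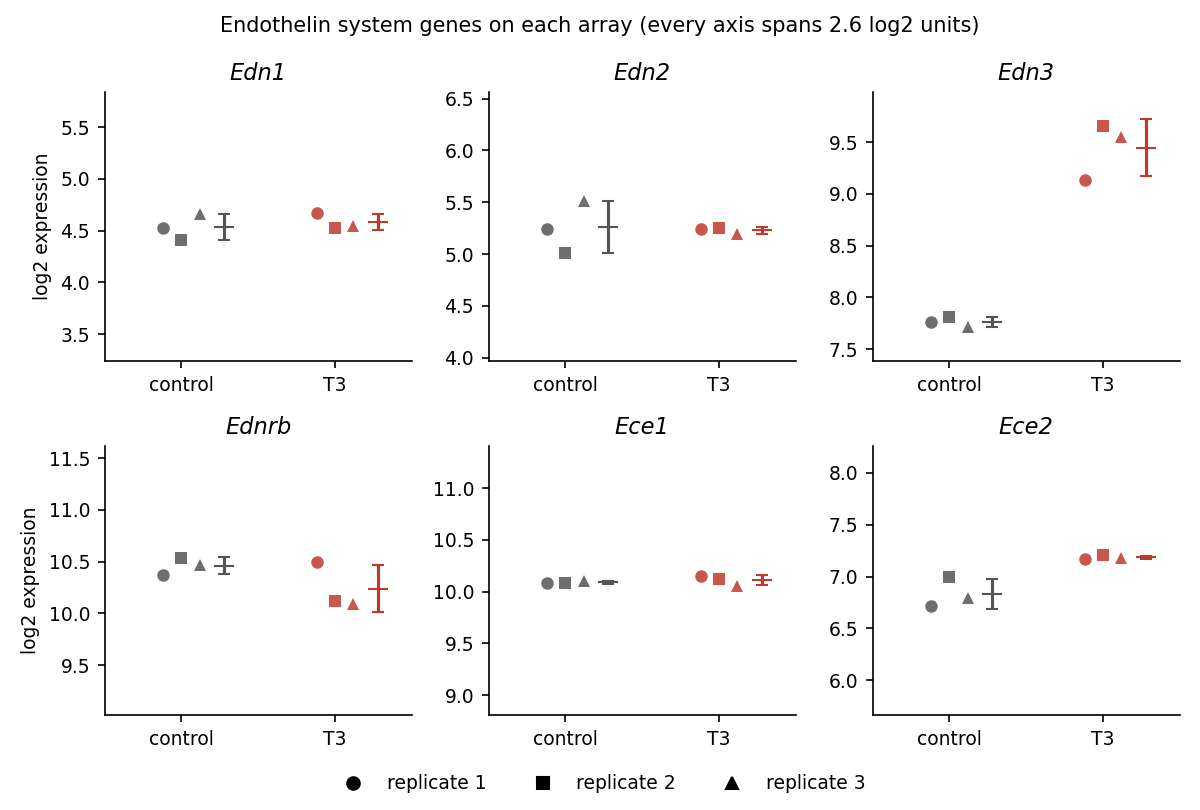
Log2 expression of the 6 measured endothelin genes (y axis, each spanning the same 2.6 log2 units) in controls (grey) and T3 samples (red), with a point per array, marked by replicate number, and the mean ± SD of the 3 arrays beside it. Edn3 is the gene whose groups lie far apart, at 7.71 to 7.82 and 9.13 to 9.66, and Ece2 is the other gene whose groups do not overlap.

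Edn1, which encodes the vasoconstrictor made chiefly by endothelium (probe set 10404783), gave low values in both groups. They were 4.53, 4.41 and 4.66 in control replicates 1 to 3 and 4.67, 4.52 and 4.55 in T3 replicates 1 to 3. The groups overlapped. The control mean of 4.53 ± 0.13 (SD, n = 3) stood at the 16.9th percentile of the genes tested, and without detection calls it may be background. The log2 change was 0.05 ± 0.09 (SE), with a 95% interval of -0.15 to 0.24 (limma, adjusted p = 0.917), so that folds between 0.900 and 1.18 lie within it.

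Edn2, a ligand of the intestine and ovary among other tissues (probe set 10507692), was likewise low. Its log2 values were 5.24, 5.01 and 5.52 in control replicates 1 to 3 and 5.24, 5.25 and 5.19 in T3 replicates 1 to 3. All T3 values lay inside the range of the controls. The change was -0.03 ± 0.12 (SE), with an interval of -0.30 to 0.24 (limma, adjusted p = 0.974), and its sign turned under other scalings or without 1 array. The sign of the Edn1 change turned without control replicate 2.

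The values of Edn3 were set against those of Edn1 on the same arrays. The log2 difference Edn3 minus Edn1 was 3.23 ± 0.18 (SD, n = 3) in controls and 4.87 ± 0.36 (SD, n = 3) with T3, which is 1.64 more. All 3 T3 arrays lay above all 3 controls, for which the exact two-sided permutation test gives p = 0.1, the smallest that 3 against 3 samples allow. As 2 such pairs of genes were tested, the Benjamini-Hochberg adjusted value is also 0.1. The test cannot reach 0.05 in this design. With Edn1 low, and possibly at background, the value of 1.64 is in the main the rise of Edn3 itself. A difference in response between the ligand genes is not shown by it.

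**Figure D2:**
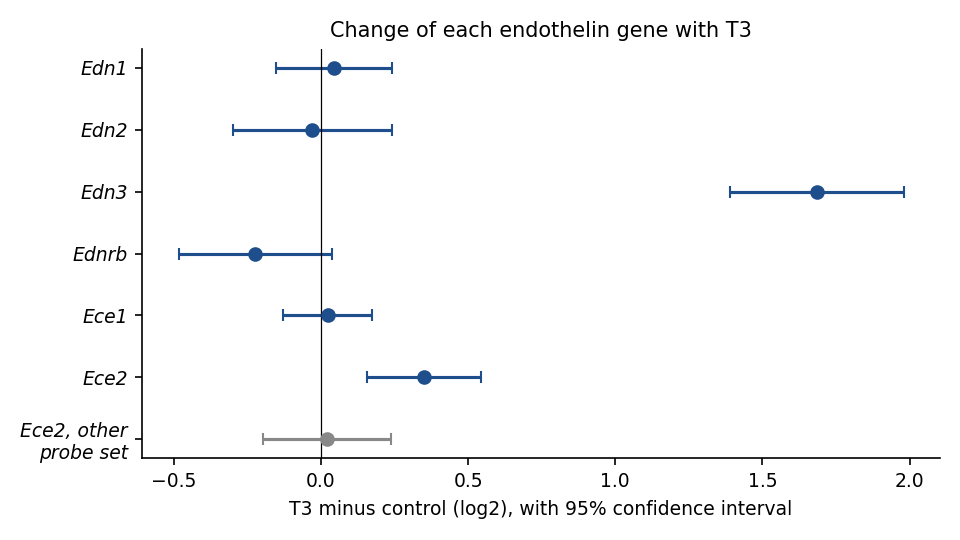
T3 minus control on the log2 scale (x axis) for each measured endothelin gene, with the 95% confidence interval from limma, and in grey the other Ece2 probe set. The interval of Edn3 runs from 1.39 to 1.98, that of Ece2 from 0.16 to 0.54, and those of the remaining genes span 0.

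Ednrb, the B receptor gene and a marker of the neural crest lineage in the gut (probe set 10422164), gave high values on all arrays and did not pass. Its log2 values were 10.38, 10.54 and 10.47 in control replicates 1 to 3 and 10.50, 10.12 and 10.10 in T3 replicates 1 to 3. T3 replicates 2 and 3 lay below every control, while T3 replicate 1 lay among the controls, so the groups overlapped. The control mean was 10.46 ± 0.08 (SD, n = 3), at the 94.2nd percentile of the genes, and the T3 mean 10.24 ± 0.23 (SD, n = 3). The log2 change was -0.22 ± 0.11 (SE), with an interval of -0.48 to 0.04, or folds between 0.715 and 1.03 (limma, adjusted p = 0.470). Without T3 replicate 1 it was -0.35 (adjusted p = 0.0898) and without T3 replicate 3 it was -0.15 (adjusted p = 0.794); over all alternatives adjusted p ran from 0.0559 to 0.794. T3 replicate 1, the array with the highest Ednrb value of its group, was also the array with the lowest Edn3 value of its group.

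Markers of the cells that carry the B receptor were described beside it. Of the 7 measured markers of enteric neural progenitors and glia, none passed the limma test, where 3.10% of all genes passed. None had an unadjusted p under 0.05, a threshold for which no share of all genes was computed. The median log2 change was -0.05. Sox10, the transcription factor of these cells, was at 11.63 ± 0.04 (SD, n = 3) in controls with a change of -0.05 ± 0.07 (SE), and Gfap, a filament of glia, had the change of smallest p, -0.20 ± 0.10 (SE). The summed signal of the 7 genes, on the log2 scale, was 13.91 to 13.98 in controls and 13.88 to 13.97 with T3.

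Ece1 encodes the enzyme that cuts big endothelin at the cell surface. Its loss, like that of endothelin 3, leaves the distal gut without neurons. The gene (probe set 10509441) hardly varied between arrays. Its log2 values were 10.09, 10.08 and 10.10 in control replicates 1 to 3 and 10.15, 10.13 and 10.06 in T3 replicates 1 to 3. The control values all lay inside the range of the T3 values. The control mean was 10.09 ± 0.01 (SD, n = 3) and the change 0.02 ± 0.07 (SE), with an interval of -0.13 to 0.17, or folds between 0.916 and 1.13 (limma, adjusted p = 0.957). Its sign turned when each array was centred on its 75th percentile.

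Ece2, a related enzyme of nervous tissue that works at acid pH inside the secretory pathway (probe set 10434446), was higher on every T3 array without passing the test. Its log2 values were 6.72, 6.99 and 6.79 in control replicates 1 to 3 and 7.17, 7.20 and 7.18 in T3 replicates 1 to 3. Control replicate 2 came nearest to the T3 samples, at a gap of 0.18. The change was 0.35 ± 0.08 (SE), 1.28-fold, with an interval of 0.16 to 0.54, an unadjusted p of 0.00287 and adjusted p = 0.0726 (limma). It passed without control replicate 2 (change 0.43, adjusted p = 0.0225), after a repeated quantile normalization (adjusted p = 0.0497), without the dimmest 50% of genes (adjusted p = 0.0324) and with array quality weights (adjusted p = 0.00132). In this order, these settings called 640, 678, 745 and 3548 genes in all, against 618 in the main fit. Over all alternatives and the other Ece2 probe set on its own, adjusted p (limma) ran from 0.00132 to 0.975.

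The value of 0.975 belongs to the other probe set named Ece2 (10434441). It comes from a limma fit over all 21789 singly named probe sets, and this comparison was not planned. That probe set read 6.25, 6.42 and 6.19 in control replicates 1 to 3 and 6.20, 6.28 and 6.45 in T3 replicates 1 to 3, with overlapping groups and a change of 0.02 ± 0.09 (SE). Its annotation includes a transcript that RefSeq gives to Eef1akmt4, a methyltransferase gene beside Ece2 with which it shares read-through transcripts. The mean of both probe sets changed by 0.19 (limma, adjusted p = 0.385). On the same arrays, Ece1 minus Ece2 was 3.26 ± 0.15 (SD, n = 3) in controls and 2.93 ± 0.05 (SD, n = 3) with T3, a difference of -0.33, without overlap (exact two-sided permutation p = 0.1, the smallest possible). With the mean of both Ece2 probe sets that difference was -0.16 (exact permutation p = 0.3).

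**Figure D3:**
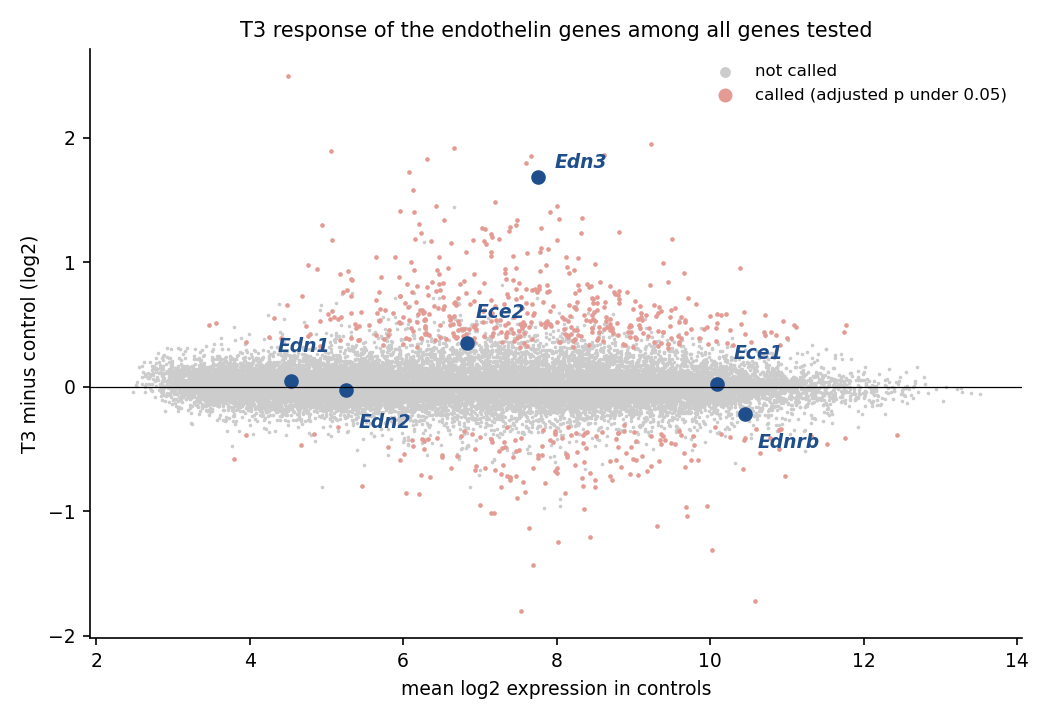
Each point is a gene, with its mean log2 expression in controls on the x axis and T3 minus control (log2) on the y axis; genes that passed the test are pink, and the 6 endothelin genes are blue. Edn3 lies at 1.69, near the top of the cloud, while Ednrb and Ece1 lie among the bright genes and Edn1 and Edn2 among the dim ones.

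The genes whose values over the 6 arrays were most like those of Edn3 were sought by the mean absolute difference between profiles, each gene centred on its own mean. They were Hr, with a mean difference of 0.14 on the log2 scale, Klf9 with 0.15, the potassium channel gene Kcna1 with 0.16, Tnfrsf14, a receptor of the tumour necrosis factor family, with 0.16, and Lrrc55, an auxiliary subunit of potassium channels, with 0.17. Their log2 changes were 1.92, 1.86, 1.95, 1.40 and 1.45. T3 replicate 1 was the lowest of the T3 arrays for Kcna1, Tnfrsf14 and Lrrc55, as for Edn3, and was not for Hr and Klf9. All 6 points are shared by these genes, and the measure picks genes of a like rise.

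For Ednrb, the same measure gave Rida, an enzyme that disposes of reactive imines, at 0.03, the protocadherin gene Pcdh8 at 0.03, Arhgef16 at 0.03, Serpinf1, the secreted factor PEDF, at 0.04, and the lipid phosphatase gene Plpp3 at 0.04. None of these 5 passed the test, with log2 changes from -0.29 to -0.22. For each of them T3 replicates 2 and 3 lay below T3 replicate 1, as for Ednrb, which the choice by likeness largely fixes.

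**Figure D4:**
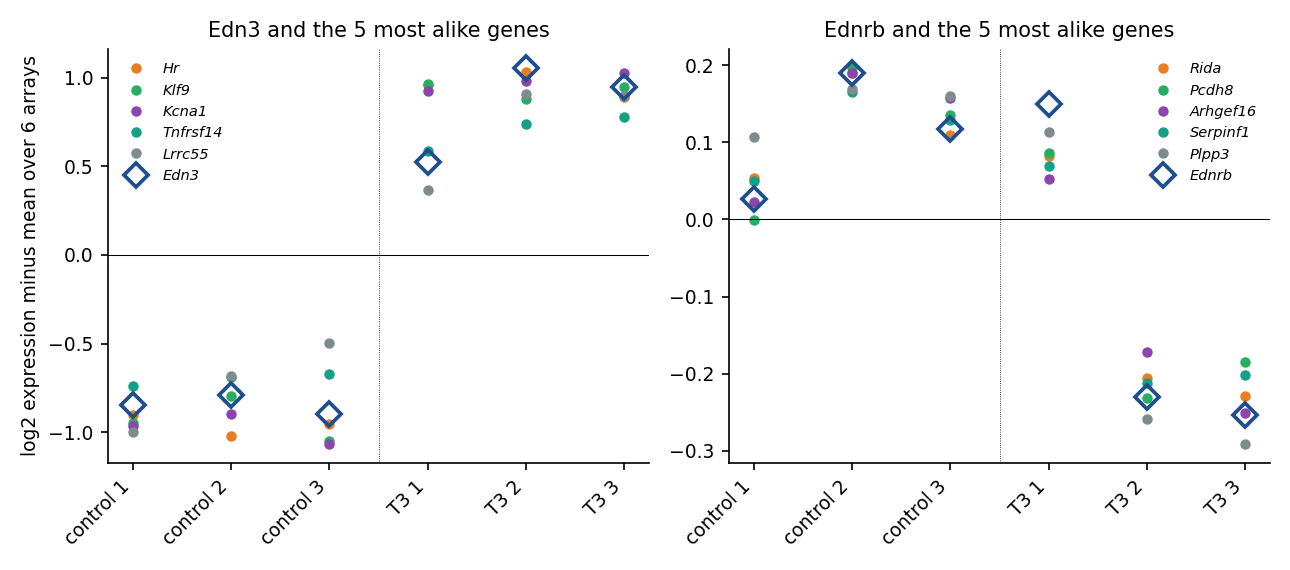
Log2 expression minus each gene's mean over 6 arrays (y axis) for every array (x axis), for Edn3 (left) and Ednrb (right, narrower scale) as open diamonds and the 5 genes most like each as dots. On the left all genes are high on the T3 arrays, by log2 changes of 1.40 to 1.95; on the right T3 replicates 2 and 3 are low and T3 replicate 1 is not.

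Genes listed for propeptide processing and breakdown, not all of them known to act on endothelins, gave no call in the main fit. Of 13 measured genes of propeptide proteases and related peptidases, 0 passed limma, where 3.10% of all genes passed. The median log2 change was 0.07. The share of all genes with an unadjusted p under 0.05 was not computed, so a count at that threshold is no result about the list. An unadjusted p under 0.05 (limma) was found for 2 of the 13. These 2 were Pcsk1, a proprotein convertase of neuroendocrine granules, at 0.53 ± 0.13 (SE, adjusted p = 0.0812), and Mmel1, a relative of neprilysin, at 0.46 ± 0.12 (SE, adjusted p = 0.0933). Pcsk1 passed in 4 of 15 alternatives, and Mmel1 in 2 of the 14 that kept it. Furin, the main protease of the first cut, and Mme, neprilysin itself, were among those that did not pass.

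Of the relatives and regulators of the receptors, 12 were measured, with a median change of 0.05; 1 was called higher, 1 lower and 10 did not pass, beside 2.28% higher and 0.823% lower over all genes. Gpr37l1, an orphan receptor of glia related to the endothelin receptors in sequence, rose by 0.42 ± 0.07 (SE). Rgs4, which speeds the inactivation of the G proteins that endothelin receptors use, fell by 0.55 ± 0.11 (SE) on the log2 scale. Of the 6 fits that leave out an array, Gpr37l1 passed in the 2 without control replicate 2 or 3 (limma, adjusted p up to 0.119) and Rgs4 in that without T3 replicate 3 (up to 0.145).

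Signal transduction behind the receptors was covered by 30 measured genes, with a median of 0.05; 2 were called higher, 3 lower and 25 did not pass, beside the same shares of all genes. Of 9 adenylyl cyclase genes, whose products make cyclic AMP, 6 did not pass, Adcy7 was higher at 0.80 ± 0.10 (SE), and Adcy1 and Adcy4 were lower at -0.48 ± 0.09 (SE) and -0.51 ± 0.11 (SE). Of the protein kinase C genes, Prkcq rose by 0.73 ± 0.09 (SE) and Prkcd was lower at -0.32 ± 0.07 (SE). Adcy7 and Prkcq passed without any 1 array. When arrays were left out in turn, Adcy1 passed only without control replicate 2, Adcy4 only without control replicate 3 and Prkcd in none of the 6 fits (limma, adjusted p up to 0.194). The genes of the G protein alpha subunits Gnaq and Gna11, which couple the receptors to phospholipase C, did not pass.

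Genes that endothelins are known to induce in fibroblasts, muscle or the embryonic face included 4 of the larger falls among the listed genes. The 16 genes measured gave 1 that rose, 4 that fell and 11 that did not pass, beside 2.28% higher and 0.823% lower over all genes, with a median of -0.12. The 4 that fell were Ccn2 at -1.72 ± 0.09 (SE) and Ccn1 at -1.04 ± 0.09 (SE), secreted proteins of the matrix, Dlx5, a homeobox gene downstream of the A receptor in the pharyngeal arches, at -1.01 ± 0.14 (SE), and Has2, which makes hyaluronan, at -0.96 ± 0.08 (SE). All 4 passed without any 1 array. Hand1 rose by 0.37 ± 0.07 (SE), but with an array left out it passed only without control replicate 2 (limma, adjusted p up to 0.174). None of these genes responds to endothelins alone. The list was made with earlier results of these data known, the falls of Ccn2 and Ccn1 among them. The count, for all 4 genes that fell, is therefore not independent evidence of a direction.

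**Figure D5:**
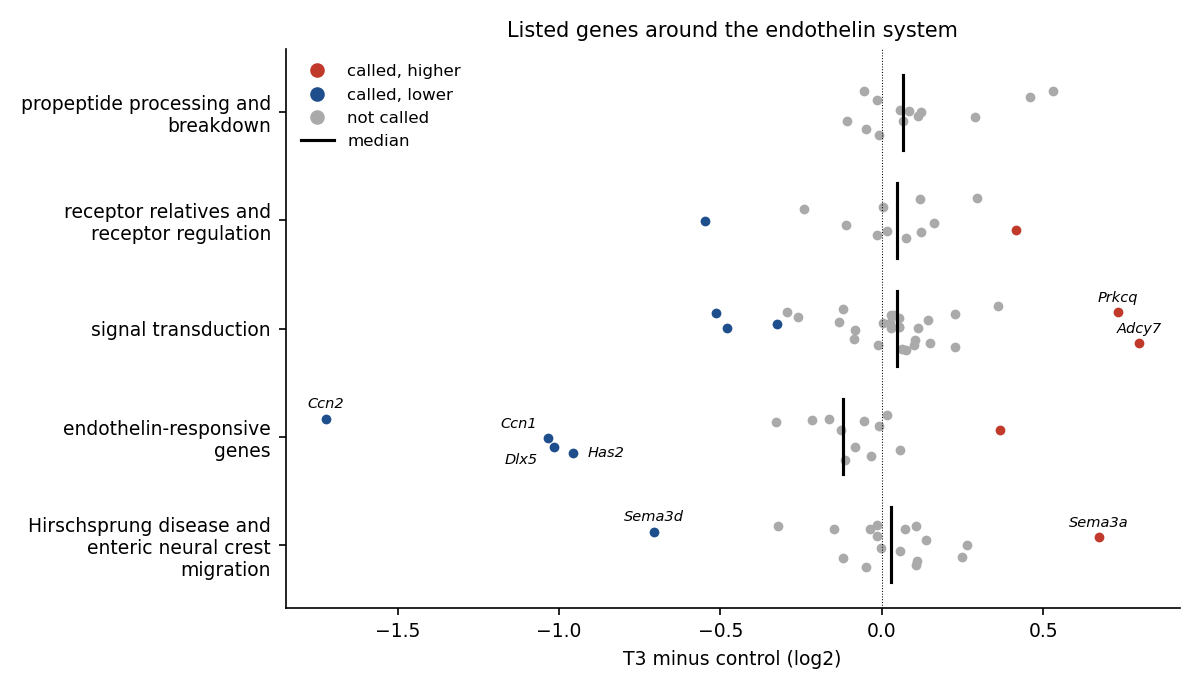
T3 minus control on the log2 scale (x axis) for each measured gene of 5 lists around the endothelin system (rows, points spread vertically for legibility), with called genes in red (higher) and blue (lower), other genes in grey and the list median as a black bar. Ccn2, Ccn1, Dlx5 and Has2 lie at -1.72 to -0.96, and every list median lies between -0.12 and 0.07.

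Hirschsprung disease and neural crest migration in the gut were represented by 18 measured genes, with a median of 0.03; 1 was called higher, 1 lower and 16 did not pass, beside 2.28% higher and 0.823% lower over all genes. The guidance genes Sema3a and Sema3d went in opposite directions, at 0.67 ± 0.14 (SE) and -0.70 ± 0.11 (SE). With an array left out, Sema3a passed only without control replicate 2 (limma, adjusted p up to 0.171), and Sema3d failed to pass without T3 replicate 2 or 3 (up to 0.0668). The receptor gene Ret had a change of 0.26 (adjusted p = 0.139) and the gene of its ligand Gdnf one of -0.32 (adjusted p = 0.109).

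Markers of the cell types that could make or receive endothelins were set beside Edn3, whose source the arrays do not show. For comparison with the counts below, 2.28% of all genes were called higher and 0.823% lower. Of 8 fibroblast and mesenchyme markers, Thy1 rose by 1.24 ± 0.11 (SE) and 7 did not pass, with a median of -0.04 and a summed log2 signal of 13.75 to 13.86 in controls and 13.80 to 13.83 with T3. Of 7 neuron markers, Prph, a filament of peripheral neurons, rose by 0.94 ± 0.10 (SE), Snap25 rose by 0.33 ± 0.07 (SE) and 5 did not pass. The list median was 0.25, and the summed signal was 13.44 to 13.59 in controls and 13.69 to 13.78 with T3. Of 8 smooth muscle markers, Myh11 rose by 0.60, Tagln and Acta2 fell by 0.72 and 0.38 on the log2 scale, and 5 did not pass. The list median was 0.15, whereas the summed signal was lower with T3 (11.34 to 11.47 in controls and 11.27 to 11.33 with T3). Acta2, the brightest of the 8 at 10.14 in controls, weighs most in that sum. Of 8 endothelium markers, 0 were called higher, Egfl7 and Kdr fell by 0.70 and 0.41 on the log2 scale and 6 did not pass. The 6 that did not pass all had changes above 0, and the list median was 0.12. The summed signal, in which Egfl7 at 8.95 in controls weighs most, was lower with T3 (9.75 to 9.92 and 9.43 to 9.66). Among 4 genes of interstitial cells of Cajal, which pace gut contractions, Ano1 rose by 0.43 and Prkcq, the kinase gene counted above, by 0.73. Kit and Etv1 did not pass, at 0.08 ± 0.10 (SE) and 0.07 ± 0.06 (SE). The summed signal of the 4 was 12.15 to 12.24 in controls and 12.34 to 12.39 with T3. None of 6 mesothelium, 6 epithelium and 5 macrophage markers passed limma. At an unadjusted p under 0.05 there were 1, 0 and 0, again without a share of all genes for that threshold. The summed signals of the groups did not overlap for neuron, smooth muscle, endothelium and interstitial cell markers. Among single genes 19.5% did not overlap, but no such share was computed for sums, in which the brightest genes weigh most. The part of the shifts in marker signal in the change of Edn3 was not tested. Thy1, Prph, Egfl7, Tagln and Prkcq passed without any 1 array, whereas Snap25, Myh11 and Acta2 passed in none of those 6 fits (adjusted p up to 0.165), Ano1 passed only without control replicate 2 (up to 0.145) and Kdr failed in the fits without T3 replicate 2 or 3 or control replicate 1 (up to 0.0776).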

How the data were processed

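The authors deposited log2 expression values for 35556 probe sets on 6 arrays, and the submitters' processing notes name RMA and Partek version 6.5. Which settings were used is not given in the sources used here, nor is a genome build. RMA as usually run gives every array a like distribution, so a shift of most genes would be removed, and differences of dim genes are flattened by array background.

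Probe sets with 1 gene symbol in the platform annotation (21789) were used, the brightest over the 6 arrays for a gene with several. Each of 19938 genes was compared between T3 and control samples in R 4.3.3 by limma 3.58.1 (lmFit, then eBayes; two-sided, Benjamini-Hochberg over all genes, called at adjusted p under 0.05). Every adjusted p is from this test unless a setting is named. The procedure was tested on simulated data, where it recovered 52.5% of log2 changes of 0.5, 90.2% of 1 and 99.2% of 1.5. Smaller changes, such as those of Ednrb and Ece2, were not simulated. Errors are the SE of the limma change or the SD over 3 arrays. Upstream sequences are from RefSeq.

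The members, the 5 lists of related genes and the 9 marker lists were chosen with earlier results of these data known. Named are the 6 measured members, Hr, Klf9, the called genes of each list (up to 6, or else the 2 of smallest p) and the 5 genes most like Edn3 and Ednrb. Others (Furin, Mme, Gnaq, Gna11, Ret, Gdnf and all marker genes) were named after their values were seen. Listed genes with no probe set of their own were not analysed here, and the planned comparison of Ednrb with Ednra was not made. Alternatives were the replicate number as a block, renewed quantile normalization, centring, filters on dim genes, averaging a gene's probe sets, trend and robust fitting, array weights and leaving out each array.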

Additional observations from a re-analysis of the deposited data

How the results depend on the processing

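Edn3 kept its direction and its call in all 15 alternatives, with log2 changes from 1.58 to 1.84 and adjusted p (limma) of up to 0.00698. Ednrb stayed below 0 and without a call in all 15. The number of endothelin genes called was 2, Ece2 being added, after repeated quantile normalization, without the dimmest 50% of genes and with array quality weights, and 1 to 2 when an array was left out. Changes near 0 turned their sign: Edn2 to 0.0043 after repeated quantile normalization, 0.0011 after centring on the median and 0.10 without control replicate 3 (range over the fits without an array -0.15 to 0.10), Ece1 to -0.0015 after centring on the 75th percentile and Edn1 to -0.017 without control replicate 2 (range -0.017 to 0.11). Over all genes, 618 of 19938 were called in the main fit and 678 after repeated quantile normalization. Without the dimmest 50% of genes, 745 of the genes kept were called. Array quality weights gave 3548 (the cause was not tested), and leaving out an array gave 191 (control replicate 1) to 640 (control replicate 2), and 395, 262, 256 and 405 when the array left out was T3 replicate 1, 2 or 3 or control replicate 3; these fits have fewer samples. With the replicate number as a block, 472 genes and 1 endothelin gene were called, and Edn3 had adjusted p = 0.00143. Under the block the calls of Gpr37l1, Prkcd, Hand1, Sema3a, Snap25 and Acta2 were not made (adjusted p from 0.0557 to 0.0996), and no other called gene named in the text lost its call. Deviations of same-numbered arrays correlated at 0.179, 0.0171 and 0.000167, and not every array correlated best with its own number, so the numbers were not taken as pairs; whether samples share mice is not settled by this. Edn1 and Edn2 drop out under the filters on dim genes, Edn1 under both and Edn2 under the stricter one. Without detection calls, a change of Edn1 or Edn2 below background would not be seen.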
